A study of Mus musculus with 2 samples.

Results

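Pericyte barcodes of the P15 mouse retina were the cell barcodes of 1 single-cell RNA library with at least 10 unique molecular identifiers (UMIs, each standing for 1 captured RNA molecule) summed over Vtn, Rgs5, Rgs4, Pdgfrb, Kcnj8, Notch3 and Cspg4. No other filter was used. The rule found 175 of the 2141 barcodes of the P15 library, and the series held 4125 barcodes in both of its libraries. They were set against the 1744 P15 barcodes with a sum of 0 or 1, called reference barcodes. The 222 barcodes with a sum of 2 to 9 belonged to neither group.

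Pericytes are the mural cells that sit on the outer face of capillaries, within the basement membrane that they share with the endothelium. Endothelial cells release PDGF-B, which holds pericytes on the vessel through the receptor PDGFRβ, and in the retina pericyte cover is needed for vessel growth and for the blood-retinal barrier. Along arterioles the mural cells are contractile smooth muscle cells, and intermediate forms lie between them.

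The study followed arterial-venous specification of the endothelium, and its single-cell series held retinal cells of wild-type C57BL/6 mice at P6 and at P15. Cells were sorted by FACS as CD31+CD45-, a gate that takes cells carrying the endothelial surface protein encoded by Pecam1 and leaves out blood cells, so the number of pericyte barcodes is the number that came through an endothelial gate. There was 1 library per age, and the number of animals behind each is not given in the sources used here. With 1 library per age no test between ages or groups of barcodes was possible, and barcodes are not replicates. The intervals below are exact 95% intervals and cover counting error only.

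The P15 library held 11589641 UMIs and the P6 library 13958124 UMIs. The pericyte barcodes held 1098519 UMIs, with a median of 5135 per barcode (range 1270 to 38977), and the reference barcodes 8744471, with a median of 4354 (11 to 22002). The median number of genes per barcode was 2371 in pericyte and 2092 in reference barcodes, and the median mitochondrial share was 1.21% and 1.03%. Levels are given as CPM, the summed UMIs of a gene divided by the total of the group and scaled as counts per 1000000 UMIs. A ratio is the CPM of one group divided by that of the other for the same gene, and the median ratio of all 10173 genes with at least 50 UMIs over both groups was 1.01. The deepest pericyte barcode, with 38977 UMIs, stood apart by its photoreceptor genes, as described below.

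The barcodes were chosen by the UMIs of the 7 rule genes in these same cells, so the values of those genes, and of all genes compared between these groups, are a description. Rgs5, a regulator of G-protein signalling, had the most UMIs of them, 6494 in 175 of 175 barcodes with a median of 28 and a maximum of 147. Its CPM was 5912 in pericyte and 34.5 in reference barcodes. Vtn, which encodes vitronectin, was found in 124 barcodes with 1938 UMIs, and Kcnj8, the pore-forming subunit of an ATP-sensitive potassium channel, in 99 with 597 UMIs. Rgs4 was found in 86, Pdgfrb in 76, the receptor gene Notch3 in 59 and the proteoglycan gene Cspg4 in 54. Rgs5 was thus the only rule gene present in every barcode of the group. The summed rule genes ranged from 10 to 266 UMIs with a median of 35. The 19 barcodes just inside the threshold, with a sum of 10 to 12, had a median rule level of 2653 CPM, and the 23 just outside it, with a sum of 7 to 9, a median of 1284 CPM.

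Cldn5, the main claudin of the tight junctions of the blood-retinal barrier, was found in 170 of the 175 pericyte barcodes, and Pecam1 in 116. Both genes were found together in 116 barcodes (66.3%, interval 58.8 to 73.2%), and 5 barcodes had neither. In reference barcodes both were found in 1567 of 1744 (89.9%, 88.3 to 91.2%). With every barcode thinned to 2000 UMIs, which left out 8 pericyte and 191 reference barcodes, the shares were 52.7% (44.8 to 60.5%) and 71.2% (68.8 to 73.4%). The endothelial genes were therefore present in most pericyte barcodes. In 47 of the 175, each of the 2 genes reached at least 5 UMIs.

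The endothelial level of a barcode is the summed CPM of 25 endothelial marker genes divided by the median of the reference barcodes. Over all pericyte barcodes the summed markers stood at 0.693 times the reference (0.684 to 0.702). The barcodes fell on both sides of a sparse stretch. There were 49 pericyte barcodes below 0.2 and 99 at or above 0.6, with 10 between 0.3 and 0.5. Below 0.4 lay 59 of 175 pericyte barcodes (33.7%, 26.8 to 41.2%) and 27 of 1744 reference barcodes (1.55%, 1.02 to 2.24%). The level was lower where the rule genes took a larger share of the UMIs. Over the 175 barcodes, the Spearman correlation between the CPM of the rule genes and that of the endothelial markers was -0.705 and Pearson's r was -0.817; both are shares of the same UMIs, so this is a description. The barcodes at the threshold were at the endothelial end, with a median endothelial level of 0.963 at a rule sum of 10 to 12 and 1.02 at a sum of 7 to 9.

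**Figure D1:**
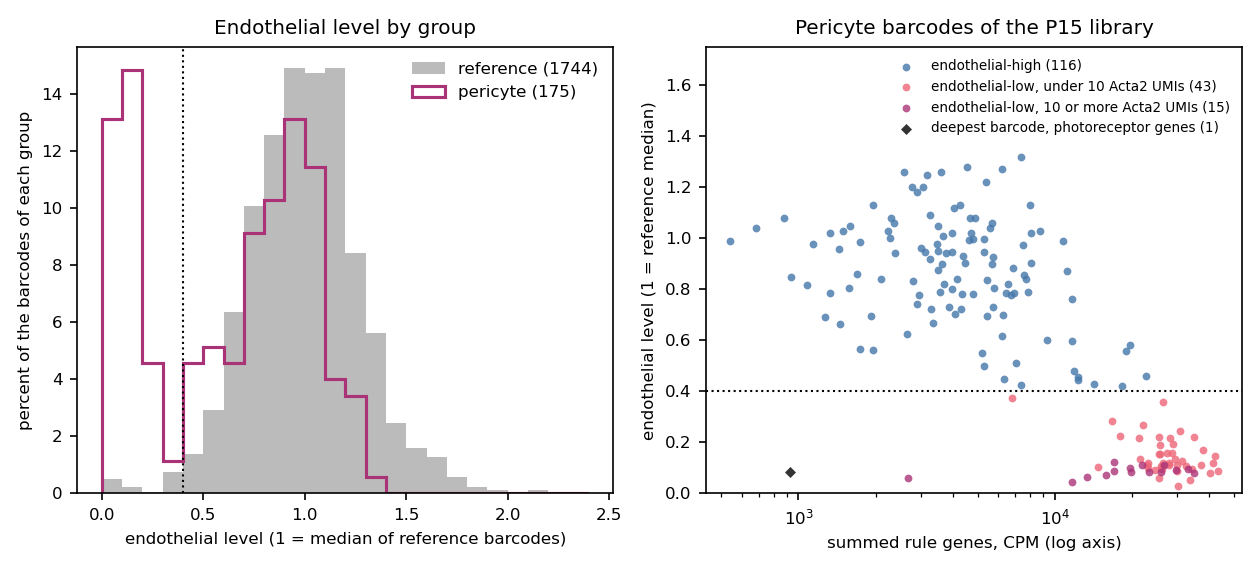
Left, percent of the 175 pericyte and the 1744 reference barcodes of the P15 library in each 0.1 step of the endothelial level, where 1 is the median of the reference barcodes. Right, each pericyte barcode by its summed rule genes (CPM, log axis) and its endothelial level, coloured by class; dotted lines mark 0.4. The pericyte barcodes form 2 bodies, 49 of them below 0.2 and 99 at or above 0.6, while the reference barcodes form 1 body around 1.

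The plot of the endothelial level shows the 2 bodies of barcodes, and the line at 0.4 was drawn between them after the values were seen. It parts a range and names no cell type. Leaving out the deepest barcode, 58 pericyte barcodes were endothelial-low, with a median endothelial level of 0.112, and 116 were endothelial-high, with a median of 0.89. Endothelial-low barcodes held a median of 4058 UMIs and 1986 genes, and endothelial-high barcodes 6331 UMIs and 2739 genes. The median mitochondrial share was 1.66% and 1.12%. The rule genes made up a median of 26077 CPM in endothelial-low and 4209 CPM in endothelial-high barcodes. Cldn5 and Pecam1 were both found in 10 of 58 endothelial-low (17.2%, 8.59 to 29.4%) and 106 of 116 endothelial-high barcodes (91.4%, 84.7 to 95.8%). Thinned to 2000 UMIs, the shares were 7.84% (2.18 to 18.9%) and 73% (64 to 80.9%). The median Cldn5 count was 2 (0 to 22) in endothelial-low and 48.5 (3 to 280) in endothelial-high barcodes. Both genes are among the endothelial markers that made the split, so these values are a description and no test.

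Among the 25 endothelial markers, which the split used, 23 stood at 0.25 times the reference or less in endothelial-low barcodes. The exceptions were Esam, an adhesion molecule of endothelial junctions, at 0.473 times, and Emcn, the sialomucin endomucin of veins and capillaries, at 0.437 times. Esam was found in 50 of 58 endothelial-low barcodes, with a median of 3 UMIs. Emcn was found in 29 of 58. Of the endothelial-low barcodes, the whole endothelial list ranged from 959 to 12098 CPM, against 13747 to 43065 CPM in the endothelial-high ones.

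The genes of the rule and the genes that went with them were present in both classes, at lower levels in the endothelial-high one. Rgs5 stood at 15528 CPM in endothelial-low and 3442 CPM in endothelial-high barcodes, and it was found in every barcode of both. Relative to its own level in endothelial-low barcodes, the level in endothelial-high barcodes was 22.2% for Rgs5, 14.4% for Kcnj8, 12.9% for Vtn and 5.55% for Notch3. Since both classes had passed the rule, these 4 percentages describe the range and are no test. Over the 25 leading genes named below, none of which the rule used, that percentage had a median of 12.2 and a range of 4.02 (Meg3) to 20 (Des). In endothelial-high barcodes each of the 25 still stood at least 4-fold above the reference, from 20-fold to 218-fold, and in endothelial-low barcodes from 200-fold to 1718-fold. The 25 had been picked as the largest ratios over both classes together, so the 4-fold limit is no test and these values are a description. By these values, the endothelial-high barcodes held UMIs of both sets of genes. Whether a barcode held more than 1 cell was not tested by a doublet caller.

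**Figure D2:**
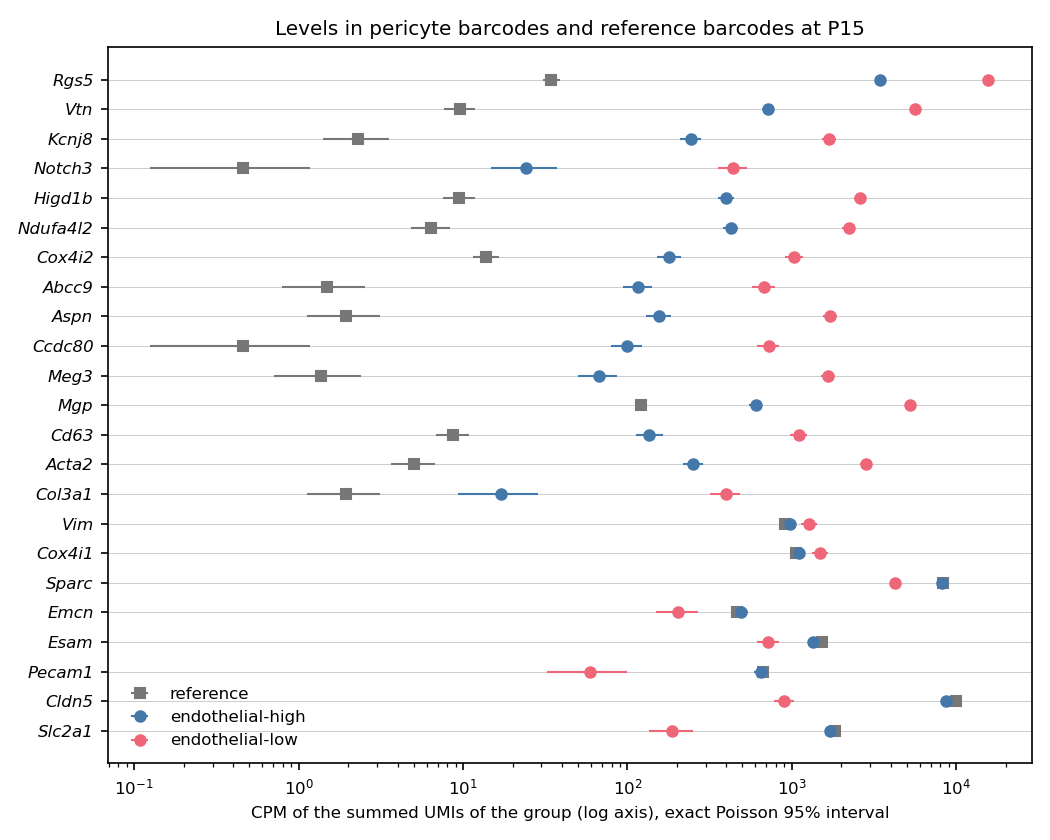
CPM of the summed UMIs (log axis) of 23 genes in reference barcodes (squares), endothelial-high and endothelial-low pericyte barcodes (circles) of the P15 library, with exact Poisson 95% intervals. For Rgs5 the 3 levels are 34.5, 3442 and 15528 CPM in that order, and for Cldn5 they are 9982, 8609 and 896 CPM. The endothelial-high barcodes lie between the other groups for Rgs5 and near the reference for Cldn5. The rule used Rgs5 and the split used Cldn5, so these levels are a description and no test.

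Sex-linked transcripts give one more value on mixed barcodes, a limited one because Xist was rare in this library. Xist, transcribed from the inactive X of female cells, and a Y-linked gene were found together in 1 of 175 pericyte barcodes (0.571%, 0.0145 to 3.14%) and in 13 of 1744 reference barcodes (0.745%, 0.397 to 1.27%). Among the 222 barcodes with a rule sum of 2 to 9 the count was 10 (4.5%). Those were deeper, with a median of 6032 UMIs against 5135 in pericyte and 4354 in reference barcodes, and this count was not thinned. Y-linked genes alone were found in 97 pericyte barcodes, Xist alone in 5 and neither in 72. In reference barcodes these counts were 887, 107 and 737. With Xist this rare, few pairs of unlike sex could be found in any group. Pairs of the same sex, or without a UMI of these genes, would not be seen this way.

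Of the 10173 genes compared, 212 (2.08%) stood at least 4-fold higher in pericyte than in reference barcodes, and for 173 of these the whole interval lay above 4. Of the 212, 177 were found in at least 10 pericyte barcodes. In 47 genes a single barcode held over 50% of the pericyte UMIs, and in 45 of these it was the deepest barcode. Without that barcode 165 of 10116 genes (1.63%) were at least 4-fold higher and 35 (0.346%) at 0.25 times or less. On the lower side 33 genes (0.324%) stood at 0.25 times or less, and for 0 of them did the whole interval lie below that value. With the endothelial-low barcodes alone set against the reference, 352 of 9902 genes (3.55%) were at least 4-fold higher and 1097 (11.1%) at 0.25 times or less.

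The 25 leading genes outside the rule, among genes with at least 100 UMIs, stood 68.1-fold to 501-fold higher and were found in 29 to 153 of the 175 barcodes. The broadest was Ndufa4l2, a relative of a respiratory chain subunit that is induced by low oxygen, with 874 UMIs in 153 barcodes against 56 in the reference (124-fold, 94.8 to 166). Higd1b, a mitochondrial membrane protein of mural cells, was found in 138 barcodes with 940 UMIs against 83 (90.2-fold, 72 to 114). Higd1b was present in 58 of 58 endothelial-low barcodes, with 1 to 33 UMIs and a median of 10. The highest ratio in this comparison belonged to Ccdc80, a secreted matrix protein, with 252 UMIs against 4 (501-fold, 193 to 1855). Ccdc80 did not keep that rank in every alternative, as given below. Aspn, which encodes the small proteoglycan asporin, had 529 against 17 (248-fold, 153 to 428).

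Others of the 25 were genes of contraction and ion handling. Des, the intermediate filament desmin of muscle, stood 174-fold higher (77.7 to 482), and Casq2, a calcium store protein, 117-fold (59.7 to 261). The long non-coding RNA gene Carmn, known from smooth muscle, had 101 UMIs against 2. The imprinted long non-coding RNA gene Meg3 had 446 UMIs in 71 barcodes, 55 of them among the 58 endothelial-low and 16 among the 116 endothelial-high barcodes. Meg3 thus had the lowest endothelial-high level of the 25 relative to its endothelial-low level, as given above. Adap2 (164-fold) and its antisense RNA Adap2os (454-fold) lie on opposite strands of chromosome 11 and overlap over 18769 bases. How strand was counted is not given in the sources used here, so their reads cannot be told apart with certainty.

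Of the 30 pericyte markers outside the rule, 28 had at least 20 UMIs over both groups, and 24 of the 28 stood at least 4-fold higher against a background of 3.47% of the 12280 genes at that minimum. None of the 28 stood at 0.25 times or less, where the background was 1.33%. These 2 shares, 3.47% and 1.33%, are the background of every list of all pericyte barcodes set against the reference below. Endothelial-high barcodes held 824163 of the 1098519 UMIs of the group, so the list ratios below are weighted toward them. Where a list below is also given for endothelial-low barcodes, the background shares are 3.55% and 11.1%, from genes with at least 50 UMIs. The lists were chosen with earlier results of these data known, so their counts are a description and no test of the label. The other 4 were Mcam (1.86-fold), Aoc3 (1.85-fold), Mfge8 (2.39-fold) and Ebf1 (1.76-fold), which were also found in 547, 151, 1232 and 1064 reference barcodes. In endothelial-low barcodes all 28 were at least 4-fold higher. The summed list stood at 7066 CPM in pericyte and 1012 CPM in reference barcodes (6.98-fold, 6.77 to 7.2). By these markers, the endothelial-low barcodes carried the label's genes at 20384 CPM and the endothelial-high ones at 3587 CPM.

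Genes of channels, receptors and vasoactive signalling set the tone of the vessel. Kcnj8 and Abcc9, the pore and the regulatory subunit of the ATP-sensitive potassium channel of mural cells, lie on the same strand of mouse chromosome 6 (Kcnj8 at chr6:142564837-142571614 and Abcc9 at chr6:142587862-142702315, minus strand, GRCm38). No protein-coding gene lies in the 16247 bases between them. Abcc9, which the rule did not use, had 255 UMIs in 87 pericyte barcodes and 13 in the reference (156-fold, 89.7 to 297). Of the receptors, Ednra for endothelin stood 116-fold (54.3 to 296) and S1pr3 for sphingosine-1-phosphate 66.1-fold higher (34.2 to 143). The nitric oxide receptor is a dimer of the products of Gucy1a1, which stood 67.8-fold higher (44.7 to 107), and Gucy1b1, which stood 150-fold higher (80 to 319). The chloride channel gene Ano1 stood 53.7-fold higher. The endothelial counterparts were not higher: Edn1, which encodes endothelin-1, stood at 0.841 times the reference, Nos3, the endothelial nitric oxide synthase, at 0.677 times and the endothelial receptor gene S1pr1 at 0.729 times. Of the 20 genes of this list with at least 20 UMIs, 12 were at least 4-fold higher (background 3.47%) and 0 at 0.25 times or less (1.33%).

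In the PDGF family the receptor gene Pdgfrb was 1 of 5 genes with at least 20 UMIs and the one that stood over 4-fold higher (background 3.47%), and the rule had used it. Pdgfb, the ligand made by endothelial cells, stood at 0.79 times the reference (0.608 to 1.01), and at 0.16 times in endothelial-low barcodes. Pdgfd stood at 0.568 times. Pdgfa was higher in endothelial-low barcodes, at 5.38 times the reference, and lay at 1.04 times in endothelial-high ones. Within the endothelial-low class it was uneven along the Acta2 division described below. Pdgfa had 22 UMIs in 11 of the 15 barcodes with at least 10 Acta2 UMIs. In the 36 barcodes without Acta2 it had 5 UMIs, in 5 of them (ratio 7.75, 2.86 to 26.2). In the Notch pathway 3 of 13 genes were at least 4-fold higher (background 3.47%): Notch3 of the rule, and the target genes Heyl (156-fold, 73.6 to 395) and Hey2 (53.1-fold, 15.7 to 279). The ligand gene Jag1 (1.02-fold) and the targets Hes1 (0.976-fold) and Hey1 (0.716-fold) had levels near or below the reference. The angiopoietin and VEGF list had 0 of 10 genes at least 4-fold higher, which at a background of 3.47% says nothing of the list, and Tek, the angiopoietin receptor of endothelium, stood at 0.545 times. Angpt1, the ligand that mural cells are known to make, had 3 UMIs in pericyte barcodes and 0 in the reference, too few for a ratio. Of 17 TGF-β and BMP genes, 1 was at least 4-fold higher, a share near the background of 3.47%: Tgfb3 (9.29-fold, 4.71 to 18.5). In 7 of the 17 the whole interval lay below 1.

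Mitochondrial proteins with a common form and a form restricted to certain cells gave 4 pairs with both genes in the table, and in 3 of the pairs the restricted form stood at least 4-fold higher and the common form did not. Cox4i1, the common form of cytochrome oxidase subunit 4, stood at 1.11 times the reference, and its paralogue Cox4i2 at 25.7 times (20.9 to 31.7). Higd1a stood at 0.901 times, where Higd1b was given above. Ndufa4 stood at 0.154 times the reference in endothelial-low barcodes, at 106 against 690 CPM, while Ndufa4l2 stood at 346 times, at 2218 against 6.4 CPM. Ndufa4 was found in 18 and Ndufa4l2 in 56 of the 58 endothelial-low barcodes. The fourth pair differed from these: Cox7a1, the form of muscle, had 8 UMIs against 29 (2.2-fold, 0.867 to 4.92), and Cox7a2 stood at 1.13 times. Of the 9 genes of this list with at least 20 UMIs, 3 were at least 4-fold higher (background 3.47%), and Cox4i2, Higd1b and Ndufa4l2 are also in the pericyte list.

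Of the matrix genes, 4 of 21 were at least 4-fold higher (background 3.47%). Mgp, an inhibitor of calcification and of BMP signalling, had the most UMIs of them, 1732 in 153 pericyte barcodes against 1054 in the reference (13.1-fold, 12.1 to 14.1). Mgp was found in 58 of 58 endothelial-low barcodes, with 1 to 107 UMIs and a median of 18. Lama2, a laminin chain of muscle and mural basement membranes, stood 95.5-fold higher (23.7 to 834), Postn 52.5-fold (20.4 to 172) and Lamc3 7.96-fold (3.4 to 18.6). Col4a1, a collagen of every vascular basement membrane, stood at 1.18 times the reference, and Sparc at 0.85 times. Of 10 integrin genes, 2 were at least 4-fold higher (background 3.47%), Itgb5 (143-fold, 59.2 to 452) and Itga7 (79.6-fold, 28.8 to 306), and 1 was at 0.25 times or less (background 1.33%), Itga3 with 0 UMIs against 30 and an interval up to 1.04. Itga5 (0.723-fold) and Itga6 (0.679-fold) had the whole interval below 1, and the collagen receptor gene Itga1 stood 2.19-fold higher (1.96 to 2.44). Of 9 genes of cell contacts 1 was at least 4-fold higher (background 3.47%), the gap junction gene Gjc1 (5.02-fold, 4.19 to 6.01), and Cdh2, the N-cadherin of contacts between endothelium and pericytes, stood at 0.985 times. In endothelial-low barcodes 4 of 21 matrix, 4 of 10 integrin and 2 of 9 contact genes were at least 4-fold higher. At 0.25 times or less stood 1, 2 and 3 of them in that order.

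Transcription factor genes known from mural cells numbered 15 with at least 20 UMIs, and 5 of them were at least 4-fold higher (background 3.47%). Prrx1 had 40 UMIs against 1, which gave 318-fold with an interval of 54 to 12887. Foxs1 stood 125-fold (46.6 to 474), Zic1 86.7-fold (43.8 to 195), Tbx2 30.7-fold (13 to 83.5) and Foxc2 13.3-fold higher (6.18 to 29.8). Of 12 solute carrier genes 4 were at least 4-fold higher (background 3.47%), and in 4 others the whole interval lay below 1. Among the higher ones Slc38a11, an amino acid carrier, had 52 UMIs against 3 (138-fold, 44.7 to 691). Slc30a10, a manganese exporter and also higher, had 26 against 0, at least 69-fold by a floor of 3 UMIs over the reference. The RGS family had 4 of 10 genes at least 4-fold higher (background 3.47%), Rgs5 and Rgs4 of the rule and, at fewer UMIs, Rgs6 (14.8-fold, 5.48 to 43.8) and Rgs10 (5.31-fold, 2.63 to 10.4). Rgs16 stood 2.91-fold higher and Rgs2 at 0.746 times.

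The lower side was made of genes with few UMIs in pericyte barcodes. The 12 lowest ratios lay between 0.139 and 0.221. Rn7sk, a small nuclear RNA that restrains transcription elongation, had 43 UMIs against 1847 (0.185-fold, 0.134 to 0.251), but 485 of the reference UMIs came from 1 barcode. Gkn3, known from arterial endothelium, had 13 against 474 (0.218-fold, 0.115 to 0.377), and stood at 0.269 times the reference in endothelial-high barcodes also (0.138 to 0.474). The mitotic genes Cdc20 and Ube2c had 3 UMIs each. The cell division list was summed to 168 CPM in pericyte and 187 CPM in reference barcodes, and 3 of its 12 genes, Mki67, Ube2c and Cenpf, stood at 0.25 times or less (background 1.33%) with few UMIs. In 2 of the 12 the whole interval lay above 1, among them Rrm2 (2.43-fold, 1.35 to 4.18), and in 4 below 1. Of 11 immediate early genes, which respond to handling of tissue, 0 were at least 4-fold higher or at 0.25 times or less, where the background shares of 3.47% and 1.33% leave little to expect. Their median ratio was 1.17, and the whole interval lay above 1 in 4 of them, Egr1 (1.9-fold) and Fos (1.43-fold) included, and below 1 in 0. The classes differed: the summed list stood at 4006 CPM in endothelial-high, 3152 CPM in reference and 2651 CPM in endothelial-low barcodes. The median ratio in endothelial-low barcodes was 1.05.

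Contractile genes were uneven among the barcodes. Of 14 smooth muscle contractile genes with at least 20 UMIs, 10 were at least 4-fold higher in pericyte barcodes (background 3.47%), with a median ratio of 36.2. Myl9, a myosin light chain, was broad, with UMIs in 56 of 58 endothelial-low barcodes. Acta2, the smooth muscle actin (chr19:34241090-34255590, minus strand, GRCm38), was not: its 868 UMIs came from 29 of the 175 barcodes, with a maximum of 144 in 1 barcode. In endothelial-high barcodes 7 of 116 had an Acta2 UMI, and 2 of these had at least 10. In endothelial-low barcodes 15 had at least 10, from 12 to 127 with a median of 35, 7 had 1 to 9, and 36 had none.

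Among endothelial-low barcodes, the 15 with at least 10 Acta2 UMIs (Acta2-positive) were set beside the 36 with none (Acta2-free). This division, and the genes named from it, were chosen after the values were seen, so it is a description. The groups also differed in depth, with a median of 4762 UMIs in Acta2-positive and 3145 in Acta2-free barcodes. Their median endothelial levels were 0.0849 and 0.129, and 9 of 12 endothelial markers had the whole interval of the ratio below 1. The counts of barcodes given for this division were not thinned to equal depth, and what these differences add was not tested. Of 2104 genes with at least 20 UMIs over both, 46 (2.19%) stood at least 4-fold higher and 69 (3.28%) at 0.25 times or less in Acta2-positive barcodes. Kcnj8 was found in 9 of 15 Acta2-positive barcodes, with 0 to 8 UMIs and a median of 1, and in 35 of 36 Acta2-free barcodes, with 0 to 22 UMIs and a median of 8. The ratio was 0.159 (0.105 to 0.232). Its neighbour and partner Abcc9 stood at 0.15 (0.0731 to 0.278), with a median of 0 and of 3 UMIs. Taken as a sum, the 2 channel genes were absent from 5 of 15 Acta2-positive barcodes and present in 36 of 36 Acta2-free ones, at a median of 210 and of 3161 CPM. The ranges overlapped, 0 to 1670 CPM against 563 to 6660 CPM.

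**Figure D3:**
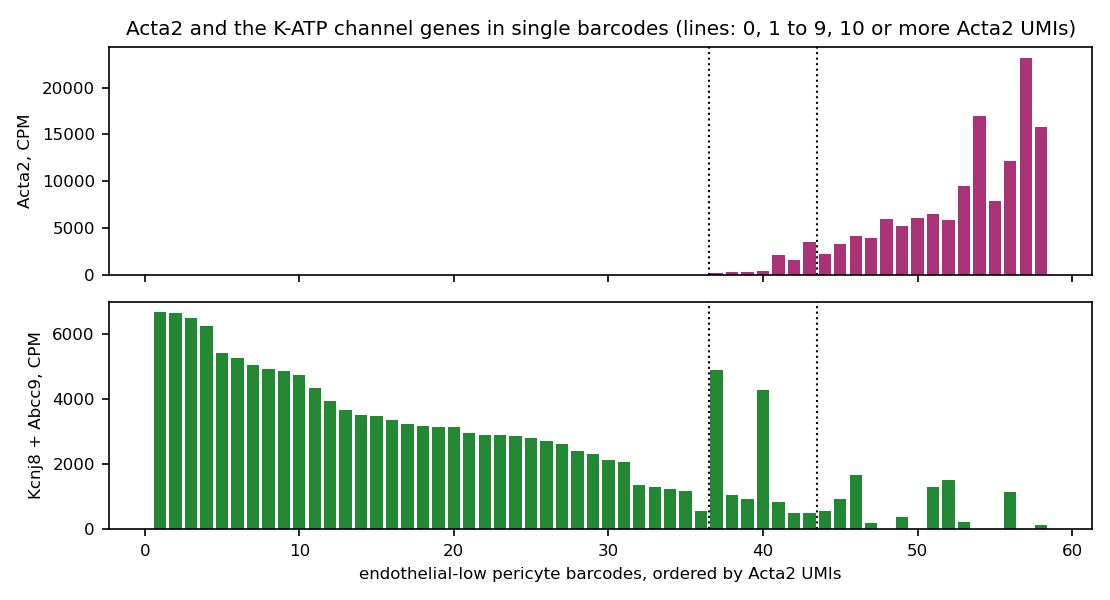
The 58 endothelial-low pericyte barcodes ordered by Acta2 UMIs, with Acta2 (top) and the sum of Kcnj8 and Abcc9 (bottom) as bars in CPM; dotted lines part barcodes with 0, with 1 to 9 and with at least 10 Acta2 UMIs. The 36 barcodes without Acta2 have a median channel level of 3161 CPM and the 15 with at least 10 Acta2 UMIs a median of 210 CPM, with 5 of them at 0.

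The plot of Acta2 and the channel genes shows the change from left to right, and the 7 barcodes with 1 to 9 Acta2 UMIs had a median channel level of 930 CPM. Other genes parted along the same line. Of 11 contractile genes with at least 20 UMIs, 8 were at least 4-fold higher in Acta2-positive barcodes (against the 2.19% of all genes), Acta2 itself among them. Tpm2, a tropomyosin, was found in 15 of 15 Acta2-positive and 10 of 36 Acta2-free barcodes (14.8-fold, 8.76 to 26.6). Tpm1 stood 7.3-fold (5.17 to 10.5), Myh11, the smooth muscle myosin heavy chain, 10.6-fold (4.06 to 34.9), and Myl9 3-fold higher (2.56 to 3.51). Outside the list, Csrp1, a LIM protein of muscle, stood 9.62-fold higher (5.28 to 18.9), and Olfr558, an olfactory receptor gene known from smooth muscle, had 22 UMIs in 7 of 15 against 0, at least 12.9-fold higher. Cav1, the caveola protein, had 28 UMIs in 12 of 15 barcodes against 1 UMI.

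On the other side, 6 of 27 pericyte markers outside the rule stood at 0.25 times or less in Acta2-positive barcodes (background 3.28%). That 0 of the 27 were at least 4-fold higher says nothing of the list at a background of 2.19%. Atp13a5, a transporter gene known from brain pericytes, had 1 UMI in Acta2-positive and 47 in Acta2-free barcodes, where it was found in 19 of 36. Outside that list, S1pr3 stood at 0.0705 (0.0083 to 0.268). Of the 7 rule genes, 4 had the whole interval below 1 and 0 had it above 1. Beside Kcnj8 these were Vtn at 0.553 (0.481 to 0.633), Pdgfrb at 0.404 (0.264 to 0.601) and Rgs4 at 0.655 (0.476 to 0.891). Vtn and Pdgfrb were each found in 10 of the 15 Acta2-positive barcodes. For the other 3 the interval held 1: Rgs5 stood at 0.947 (0.88 to 1.02), Notch3 at 1.03 (0.657 to 1.58), and Cspg4 at 0.907 (0.474 to 1.68). It also held 1 for Heyl at 1 (0.633 to 1.56) and Mgp at 1.02 (0.895 to 1.15). The rule therefore took barcodes rich in contractile genes with barcodes rich in channel genes, and in the 15 Acta2-positive ones Kcnj8, Pdgfrb, Vtn and Rgs4, all markers of the label, were lower than in the Acta2-free ones.

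Markers of other cells are given by list. Of 5 fibroblast markers with at least 20 UMIs, Col1a2 (119-fold, 49 to 378) and Col3a1 (50.1-fold, 29.9 to 89.2) were higher. Among the same 5, 1 stood at 0.25 times or less and 2 had the whole interval below 1. The median ratio of the 5 was 0.995. Dcn had 1 UMI and Pdgfra 3 in all pericyte barcodes. Col3a1 was found in 40 of the 175. The immune list stood at 14.6 CPM in pericyte and 15.4 CPM in reference barcodes, with Cx3cr1 and P2ry12 of microglia at 0. The glial list stood at 2071 CPM in pericyte and 2185 CPM in reference barcodes (0.948-fold, 0.907 to 0.99), so it was as abundant in the reference. In it Aqp4 was at 0, and 1 of 9 genes, Dkk3, was at least 4-fold higher (11.7-fold, 6.32 to 22.2). The pigment and Schwann cell list stood at 15.5 and 2.74 CPM. Red cell and platelet markers stood at 5119 and 7139 CPM (0.717-fold, 0.698 to 0.737). Haemoglobin reached at least 100 UMIs in 5 pericyte and 17 reference barcodes. Retinal neuron and photoreceptor markers stood at 2681 CPM in pericyte and 126 CPM in reference barcodes, but 2391 of their 2945 UMIs were in the deepest barcode. Without it the list stood at 523 CPM, and 446 of the 554 UMIs left were those of Meg3. No leading gene rested on that barcode, since all 25 stood at least 4-fold higher in each of the endothelial-low and endothelial-high classes, which leave it out.

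The study's own cell selection, as read here, kept barcodes with 200 to 3500 genes and at most 5% mitochondrial UMIs. It gives 200 and 3500 as RNA counts and elsewhere speaks of gene numbers, so genes per barcode is a reading. Barcodes with Hbb-bt, Neurod1 or Cd63 were left out, which the study took as marks of blood cells, neural cells and pericytes in that order. Cd63 encodes a tetraspanin of endosomes. It was found in 105 of 175 pericyte barcodes (60%, 52.3 to 67.3%) and 68 of 1744 reference barcodes (3.9%, 3.04 to 4.92%), at 338 and 8.69 CPM (38.9-fold, 30.3 to 50.4). Thinned to 2000 UMIs the shares were 38.3% and 1.74%. It was found in 52 of 58 endothelial-low barcodes (89.7%, 78.8 to 96.1%), with a median of 4 UMIs, and in 53 of 116 endothelial-high ones (45.7%, 36.4 to 55.2%). Its level did not part the Acta2 groups (1.05-fold, 0.791 to 1.38). Other tetraspanins differed, with Tspan7 at 5.54 times and Cd81 at 1.06 times the reference.

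Reading any UMI of the 3 genes as a failure, 52 of 175 pericyte barcodes (29.7%, 23.1 to 37.1%) and 1455 of 1744 reference barcodes (83.4%, 81.6 to 85.1%) passed all criteria. The Cd63 criterion did most of this among pericyte barcodes: 140 passed the other criteria, and Cd63 removed 88 of these (62.9%). Among endothelial-low barcodes it removed 48 of 53, and among endothelial-high barcodes 40 of 87. Those left were therefore mostly of the second class, 47 of the 52, with rule sums of 10 to 46, and the 5 endothelial-low barcodes left had sums of 56 to 145. Of the other criteria, 23 pericyte barcodes had over 3500 genes, 15 held Hbb-bt, 2 Neurod1 and 1 over 5% mitochondrial UMIs.

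The same rule was applied to the P6 library, which had no part in choosing the P15 barcodes or the 25 leading genes. It found 10 of 1984 barcodes there, with rule sums of 14 to 128, against 1966 reference barcodes. Their endothelial levels ran from 0.0699 to 0.792. The 2 libraries shared 7 barcode sequences, of which 2 were pericyte barcodes at P15 and 0 at P6. All 25 genes stood at least 4-fold higher at P6 with the whole interval above 1, where 6.67% of the 12992 genes with at least 20 UMIs were at least 4-fold higher. Only 16 of the 25 reached 20 UMIs at P6, so this share is a background for those 16 alone. The other 9 rest on few UMIs, such as Il34 with 1 against 3 and Casq2 with 6, all in 1 barcode, against 7. Ednra had 10 UMIs against 0 in the reference. Of the 12 lowest P15 ratios, 10 were also below 1 at P6, but 41.7% of all genes there stood at 0.25 times or less, so nothing is read from this count.

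Levels at the 2 ages are given side by side. Rgs5 stood at 7847 CPM in the P6 and 5912 CPM in the P15 pericyte barcodes, and was found in 10 of 10 at P6 with 2 to 115 UMIs. Higd1b stood at 1360 and 856 CPM, with UMIs in 9 of 10 at P6. For Higd1b the ratio differed more between the ages than the level did, 1883-fold at P6 against 90.2-fold at P15, since it stood at 0.722 CPM in the P6 and 9.49 CPM in the P15 reference. Ndufa4l2 had a ratio of 114-fold (85.3 to 150) at P6 and 124-fold at P15, while its level was 1378 and 796 CPM. Mgp stood at 4907 CPM at P6 and 1577 CPM at P15. Acta2 was again in few barcodes, with 76, 15 and 1 UMIs in 3 of 10, so that 1 barcode held most of its 92 UMIs. The summed pericyte markers outside the rule stood 11.9-fold higher at P6 (11 to 12.9). Since the ages differ in library, in the number of pericyte barcodes and in their endothelial share, age and library cannot be told apart, and these differences were not tested.

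**Figure D4:**
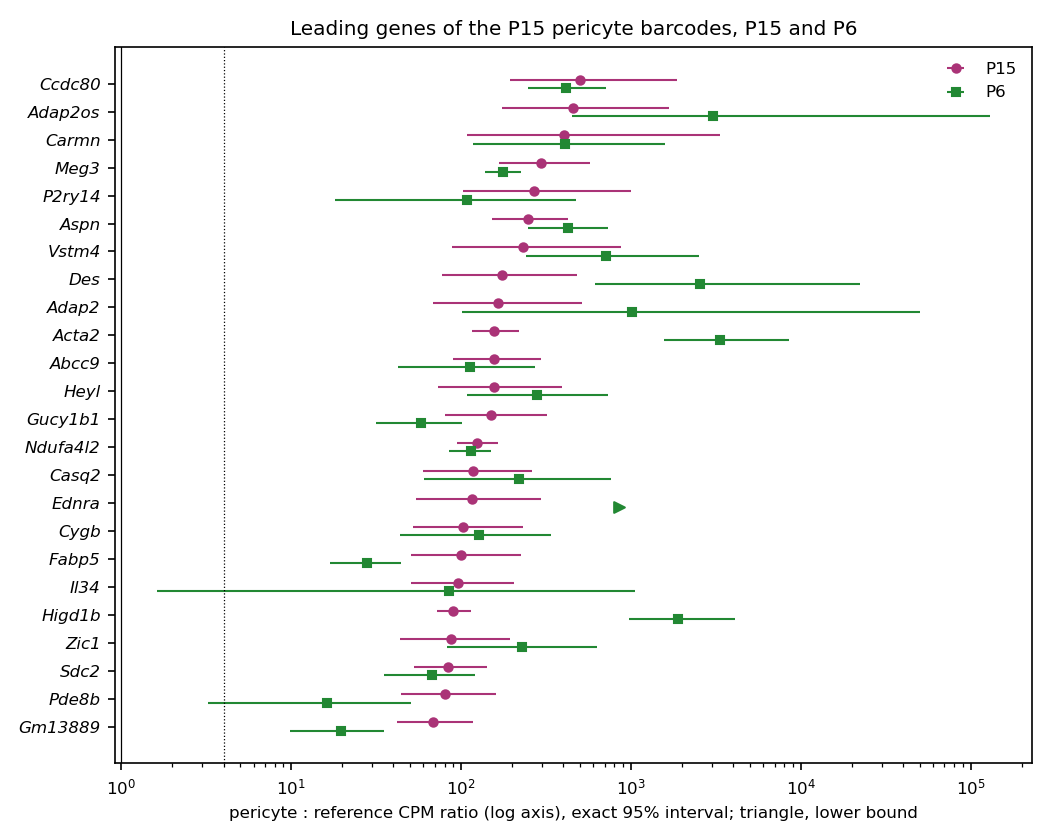
Ratio of pericyte to reference CPM (log axis) for 24 of the 25 leading genes of the P15 pericyte barcodes, at P15 (circles, 175 barcodes) and at P6 (squares, 10 barcodes), with exact 95% intervals; the triangle marks a lower bound where the P6 reference had 0 UMIs, and lines mark ratios of 1 and 4. All 24 genes lie above 4 at both ages, with wider intervals at P6, for example 968 to 4088 for Higd1b against 72 to 114 at P15.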

How the data were processed

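Retinal cells of wild-type mice were sorted as CD31+CD45- and captured on the 10x Genomics platform, 1 library at P6 and 1 at P15. The deposited tables hold UMI counts per gene and barcode, whole numbers that the authors did not normalize. The submitters' processing notes name Seurat (3.0) and the build mm10. The aligner, the annotation and the treatment of strand are not given in the sources used here. Of 21785 Ensembl identifiers at P15, 21745 matched a gene symbol. Coordinates came from the GENCODE annotation of GRCm38. A gene without a row was not taken as 0, and 0 columns belonged to samples of another series.

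UMIs were summed over the barcodes of a group and divided by the group's total to give CPM. Ratios carry conditional exact binomial intervals, CPM exact Poisson intervals and shares Clopper-Pearson intervals, all at 95%. Genes needed 50 UMIs over both groups for counts over all genes, 20 in lists and 100 to be among the leading genes. A level against a reference with 0 UMIs was bounded with 3 UMIs. No barcode was removed and no doublet caller was run. Named genes were the rule genes, Cldn5, Pecam1 and the study's exclusion genes, the 25 largest and 12 smallest ratios, and in each list the extreme and most abundant members. The members, lists and rule were chosen with earlier results of these data known, and the divisions by endothelial level and by Acta2 after the values were seen. The comparison was tested on simulated data, where the UMIs of each group were drawn from fixed gene shares without variation between barcodes. Over 9991 genes, 95.8% of the intervals held the true ratio. The draw follows the model of the intervals, so this share says nothing of genes uneven among barcodes. Of the genes raised 8-fold 100%, and of those lowered 8-fold 93%, passed the 4-fold limits, and 9 unchanged genes passed as well. Some genes that the rule or a list names are not reported here. Alternatives were other thresholds, filters, references and weights, and thinning. Python 3.11.15 was used with numpy 2.4.6, scipy 1.17.1, pandas 2.3.3 and matplotlib 3.10.9.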

Additional observations from a re-analysis of the deposited data

How the results depend on the processing

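No paired analysis was possible because each age had 1 library. The rule found 229 barcodes at a minimum of 5 rule UMIs, 129 at 20, 162 when set as a share of a barcode's UMIs and 151 with the limits on genes and mitochondrial UMIs. Each of the 25 leading genes with a value stayed at least 4-fold higher with a minimum of 20 and with equal weight per barcode. The same held against every other barcode as reference and after thinning (24 genes). They were picked as the largest ratios, so this limit lay far below them, and the lowest value was 40.8-fold. Their order moved: Ccdc80 stood at 201-fold against every other barcode, below Carmn at 322-fold. With equal weight Ccdc80 stood at 610-fold, below Adap2os at 702-fold. No result given an alternative in this section changed direction, and most gene lists and the single ratios of the Acta2 division were given none here. The summed immediate early list, given above by class, lay below the reference in endothelial-low barcodes alone. The summed endothelial level, 0.693 as reported, was 0.763 at a minimum of 5 rule UMIs, 0.619 at 20, 0.67 by share, 0.655 with the limits on genes and mitochondrial UMIs, 0.634 after thinning, 0.202 without the barcodes that held both Cldn5 and Pecam1, 0.621 with equal weight and 0.715 without the deepest barcode. The share with both Cldn5 and Pecam1 was 57.4% at a minimum of 20 and 52.7% after thinning. The number of higher genes, 212 as reported, was 82 after thinning, 394 without the barcodes that held both genes, 352 in endothelial-low barcodes, 426 and 55 at gene minimums of 20 and 200 UMIs and 503 at 2-fold. The number of lower genes, 33 as reported, was 87 at a minimum of 20 rule UMIs, 79 by share, 52 with the limits on genes and mitochondrial UMIs, 801 without the barcodes that held both genes, 1097 in endothelial-low barcodes, 79 with equal weight, 163 and 4 at gene minimums of 20 and 200 and 274 at 2-fold. The pericyte list at P6 stood 13.9-fold higher at a minimum of 20 rule UMIs and 13-fold after thinning. Where an alternative left fewer UMIs or other barcodes, the counts follow from that construction in part, and the cause was otherwise not tested. The division by endothelial level at 0.3 or 0.5 in place of 0.4 gave 56 or 66 endothelial-low barcodes. With Acta2 limits of 5 or 20 UMIs, 46 or 47 genes were at least 4-fold higher and 58 or 94 at 0.25 times or less. Alternatives without the deepest barcode, in endothelial-low barcodes alone and for these divisions were chosen after seeing the data. At P6, 10 barcodes limit every value, and genes with few UMIs in pericyte barcodes have wide intervals.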

Other observations

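The 222 P15 barcodes with a rule sum of 2 to 9, which the comparison left out, had a median of 6032 UMIs and 2610 genes. Their median endothelial level was 0.976, and Cldn5 and Pecam1 were both found in 204 of them (91.9%, 87.5 to 95.1%). Thinned to 2000 UMIs, that share was 72.9% (66.4 to 78.7%). Cd63 was found in 20 of the 222 (9.01%, 5.59 to 13.6%), and in 2.8% after thinning.

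In endothelial-high pericyte barcodes, Mfsd2a, a lipid carrier of the barrier, stood at 0.921 times the reference (0.829 to 1.02). Pdgfb stood at 1.01 times (0.771 to 1.3). Vcam1, an adhesion molecule known from larger vessels, stood at 0.257 times (0.102 to 0.536). Vcam1 was chosen after its values were seen. More genes of vessel types were compared than are given here, so no vessel type is read from these values.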
